A study of Mus musculus with 12 samples.

Results

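The miR-30 family was followed in microglial exosomes after repetitive mild traumatic brain injury (rmTBI). The 7 arms described here were mmu-miR-30a-5p, mmu-miR-30b-5p, mmu-miR-30c-5p, mmu-miR-30d-5p, mmu-miR-30e-5p, mmu-miR-30a-3p and mmu-miR-30e-3p, chosen by name from 1881 mouse miRNAs on the array. All 7 were found under exactly these names and were detected above background on all 12 arrays, and all 7 were among the 486 miRNAs that entered the tests. At 42 days post-injury (DPI), miR-30b-5p, miR-30c-5p, miR-30e-5p and miR-30a-5p were higher than in sham by 1.41, 1.01, 0.93 and 0.70 on the log2 scale. The paralog miR-30d-5p did not share this rise: its log2 difference was -0.25, and the change of miR-30b-5p exceeded that of miR-30d-5p by 1.66 at 42 DPI. The 5p and 3p arms of the miR-30a and miR-30e hairpins did not differ detectably in their change, with intervals given below.

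The samples came from male C57BL/6 mice, 12 weeks old per the study's methods, with no genetic modification named. There were 4 groups of 3 arrays each. Sham mice had the same anesthesia and handling without an impact, and the other groups had 4 closed-head impacts 48 h apart and were sampled at 3, 14 or 42 DPI. Exosomes were precipitated from papain-digested brain and then pulled down with an antibody to CD11b, a surface protein of microglia and other myeloid cells. The labels call the tissue cerebrum from the injured hemisphere, whereas the methods describe mixed cortex and hippocampus of both sides. Sham mice are not given a sampling day in the labels. The labels do not say whether the arrays of a group came from separate or pooled animals, so the p-values measure the spread between these samples, which may be technical.

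A miRNA hairpin is cut into a 5p and a 3p arm, and the arm that is loaded into an Argonaute protein guides it to messenger RNAs, mostly through bases 2 to 8, the seed. The 5p arms of the miR-30 family share a seed and therefore a large part of their predicted targets, while the 3p arms of miR-30a and miR-30e carry a different seed. The family is abundant in brain and many other tissues and is known for restraint of autophagy, where miR-30a targets Beclin 1, and for its role in the podocytes of the kidney.

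The mature sequences show how alike the paralogs are outside the seed, which matters for how well array probes can tell them apart. The probe sequences were not examined. The RefSeq table (GRCm38.p6) held 5 of the 7 arms. The seed is in capitals, and each sequence is written 5′ to 3′.
miR-30a-5p: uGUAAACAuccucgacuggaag
miR-30e-5p: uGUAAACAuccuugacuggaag
miR-30c-5p: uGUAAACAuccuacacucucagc
miR-30a-3p: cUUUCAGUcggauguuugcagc
miR-30e-3p: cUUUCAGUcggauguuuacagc

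Counted from 1 at the 5′ end, miR-30a-5p and miR-30e-5p differed by 1 substitution, C13U, and miR-30a-3p and miR-30e-3p also by 1, G18A. Over the first 22 bases, miR-30c-5p differed from miR-30a-5p by 5 substitutions, C13A, G14C, G18C, G19U and A20C. All of these lie outside the seed. Signal of such close paralogs may be shared between their probes, and a difference between miR-30a and miR-30e is therefore uncertain. Neither the sum of probes nor a single probe shows how much was shared.

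The genome places these arms in pairs. On chromosome 1 (plus strand), miR-30a-5p lies at chr1:23272274-23272295 and miR-30a-3p at chr1:23272315-23272336, within the Mir30a hairpin, and Mir30c-2 follows 19362 bp further on. On chromosome 4 (minus strand), miR-30e-5p lies at chr4:120772660-120772681 and miR-30e-3p at chr4:120772618-120772639, and Mir30c-1 lies 2984 bp from Mir30e. Both of these hairpins fall within the span of Nfyc, a protein-coding gene for a subunit of the transcription factor NF-Y, and Mir30e also overlaps the annotated Mir30f. The Mir30a and Mir30c-2 hairpins overlapped no other gene in the table. Mir30b and Mir30d form the other pair, 3698 bp apart on chromosome 15. Since miR-30c-5p is made with 1 and the same sequence from Mir30c-1 at chr4:120769584-120769606 and Mir30c-2 at chr1:23291714-23291736, the array cannot tell those loci apart.

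The hairpins that give both measured arms show the arms in place, in capitals.
Mir30a: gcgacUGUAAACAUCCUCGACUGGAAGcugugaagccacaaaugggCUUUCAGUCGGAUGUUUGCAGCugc
Mir30e: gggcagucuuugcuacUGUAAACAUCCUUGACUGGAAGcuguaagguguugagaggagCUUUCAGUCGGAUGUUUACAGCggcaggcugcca

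Values are given as a log2 scaled signal: the summed intensity of a miRNA's probes, divided by the 75th percentile over the array's 230 always-detected miRNAs, on the log2 scale. Different miRNAs have different probes, so their levels are not compared with each other. That percentile rose from between 217 and 348 intensity units on the sham arrays to between 1385 and 2936 at 42 DPI, with 3 DPI (401 to 619) and 14 DPI (588 to 1173) between them. Sham arrays detected 243 to 285 miRNAs and 42 DPI arrays 490 to 579, so brighter arrays go with the later groups. The arrays lay on 2 slides. Slide 1 held the sham arrays and replicate 1 of 3 DPI, and slide 2 held the other 8, so that slide and injury cannot be told apart for 14 or 42 DPI against sham. Fewer cells releasing exosomes and less miRNA per exosome cannot be told apart either. Of 6 microglia and myeloid miRNAs, 1 was detected on all sham arrays, 2 on all 3 DPI and all 14 DPI arrays, and 4 on all 42 DPI arrays. miR-21a-5p, which many cell types express, was detected on every array, and the myeloid miR-223-3p on 1 of 3 sham arrays and on all others. The defining miR-142a-3p was not detected on any sham or 3 DPI array.

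miR-30b-5p had the largest change of the 7. Its log2 scaled signal was -2.08, -1.72 and -1.59 on the sham arrays, -1.64, -1.16 and -1.63 at 3 DPI, -1.09, -0.44 and -0.41 at 14 DPI, and -0.34, -0.41 and -0.41 at 42 DPI. Every 14 and 42 DPI array lay above every sham array, while the 3 DPI arrays overlapped sham. The log2 change against sham was 0.32 ± 0.21 (SE) at 3 DPI, 1.15 ± 0.21 at 14 DPI and 1.41 ± 0.21 at 42 DPI (n = 3 per group, limma), and the Benjamini-Hochberg adjusted p over all 486 miRNAs was 1, 0.0193 and 0.00573. On the linear scale, the changes at 14 and 42 DPI were 2.22-fold (95% interval 1.59 to 3.10) and 2.65-fold (1.90 to 3.70), and the latter was the 6th highest change of the 486. The call at 14 DPI did not hold when only sham and 14 DPI entered the fit with the replicate number as a block (adjusted p = 0.0805, limma). It was also lost without sham replicate 1, sham replicate 2, 14 DPI replicate 2 or 14 DPI replicate 3, with log2 changes of 1.01, 1.19, 1.05 and 1.03.

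miR-30c-5p followed the same order of groups. Its values were 0.27, 0.73 and 0.74 in sham, 0.87, 0.97 and 0.45 at 3 DPI, 0.88, 1.56 and 1.52 at 14 DPI, and 1.61, 1.64 and 1.52 at 42 DPI. The 14 and 42 DPI arrays all lay above sham, but replicate 1 of 14 DPI was close to the sham arrays, and without it miR-30a-5p, miR-30c-5p and miR-30e-5p were called at 14 DPI too, at 0.61, 0.96 and 0.81. Over all miRNAs, the calls at 14 DPI rose from 18 to 162 of 486 when that array was left out. The log2 change was 0.74 ± 0.21 at 14 DPI (adjusted p = 0.105, limma) and 1.01 ± 0.21 at 42 DPI (adjusted p = 0.0124, limma), which is 2.02-fold with an interval of 1.44 to 2.83.

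**Figure D1:**
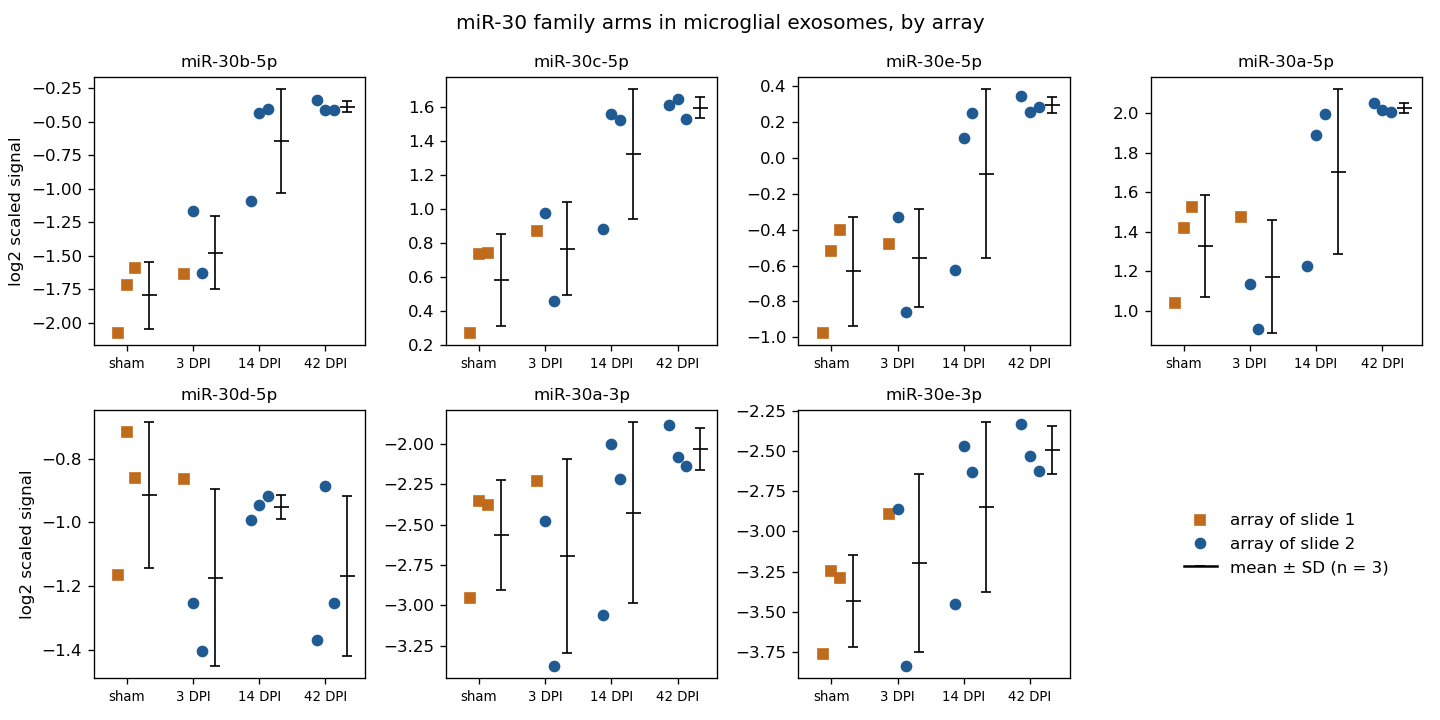
Log2 scaled signal (vertical axis, a separate range in each panel) of the 7 miR-30 arms by group, 1 point per array, squares for slide 1 and circles for slide 2, with mean ± SD beside them (n = 3). All 42 DPI arrays lie above all sham arrays in every panel except that of miR-30d-5p, and replicate 1 of 14 DPI, drawn first, lies below the other 14 DPI arrays in each panel.

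miR-30e-5p and miR-30a-5p, which differ at 1 base, rose at 42 DPI and were spread widely at 14 DPI. miR-30e-5p was at -0.98, -0.52 and -0.40 in sham, -0.48, -0.33 and -0.86 at 3 DPI, -0.62, 0.11 and 0.25 at 14 DPI, and 0.34, 0.26 and 0.28 at 42 DPI. Replicate 1 of 14 DPI lay within the sham range and the other 14 DPI arrays above it. Its log2 change was 0.54 ± 0.25 at 14 DPI (adjusted p = 0.240, limma) and 0.93 ± 0.25 at 42 DPI (adjusted p = 0.0217, limma), or 1.90-fold with an interval of 1.29 to 2.80.

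For miR-30a-5p, the sham arrays gave 1.04, 1.42 and 1.53, the 3 DPI arrays 1.48, 1.14 and 0.91, the 14 DPI arrays 1.23, 1.89 and 2.00, and the 42 DPI arrays 2.05, 2.02 and 2.01. Only the 42 DPI arrays were clear of sham, and they differed among themselves by less than any other group. The log2 change was 0.38 ± 0.22 at 14 DPI (adjusted p = 0.369, limma) and 0.70 ± 0.22 at 42 DPI (adjusted p = 0.0427, limma), or 1.62-fold with an interval of 1.14 to 2.30. With the replicate number as a block its adjusted p at 42 DPI was 0.0653. Both calls at 42 DPI were lost when single arrays were left out. Without sham replicate 1, sham replicate 2, or 42 DPI replicate 1, 2 or 3, the log2 changes were 0.55, 0.74, 0.68, 0.70 and 0.71 for miR-30a-5p and 0.75, 0.98, 0.90, 0.95 and 0.93 for miR-30e-5p. miR-30a-5p also missed the threshold without 3 DPI replicate 2 or 14 DPI replicate 2, at an unaltered 0.70.

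miR-30d-5p stood apart from the other 5p arms. Its values were -1.17, -0.72 and -0.86 in sham, -0.86, -1.25 and -1.40 at 3 DPI, -0.99, -0.94 and -0.92 at 14 DPI, and -1.37, -0.89 and -1.25 at 42 DPI. The groups overlapped at every time. The log2 change against sham was -0.26 ± 0.17 at 3 DPI, -0.04 ± 0.17 at 14 DPI and -0.25 ± 0.17 at 42 DPI, with a 95% interval at 42 DPI of -0.65 to 0.14 (adjusted p = 0.275, limma). That interval ends below the values of miR-30a-5p and miR-30e-5p, yet the direction of miR-30d-5p depended on the scaling: with the 75th percentile taken over all miRNAs, the change at 42 DPI was 0.52, in a setting in which the median over all tested miRNAs was 0.46. With normexp background correction it was called lower at 42 DPI, at -0.46, in a fit that called 429 of 486 miRNAs.

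The 3p arms had their highest group mean at 42 DPI, with a wider spread than most 5p arms. miR-30a-3p was at -2.96, -2.35 and -2.38 in sham, -2.23, -2.48 and -3.37 at 3 DPI, -3.06, -2.003 and -2.22 at 14 DPI, and -1.89, -2.08 and -2.13 at 42 DPI. miR-30e-3p was at -3.76, -3.24 and -3.29, then -2.89, -2.86 and -3.84, then -3.45, -2.47 and -2.63, and at 42 DPI -2.33, -2.53 and -2.63. For both, the 42 DPI arrays lay above the sham arrays and the earlier groups overlapped sham. The log2 change at 42 DPI was 0.53 ± 0.35 for miR-30a-3p (interval -0.27 to 1.33, adjusted p = 0.260, limma) and 0.93 ± 0.33 for miR-30e-3p (interval 0.19 to 1.67, adjusted p = 0.0538, limma), so neither passed the threshold. The call of miR-30e-3p lay close to the threshold. It was called higher with the total gene signal, the brightest probe, quantile normalization, the percentile over all miRNAs, a lower floor, no scaling, the miRNAs detected on all 12 arrays, a fit of sham and 42 DPI alone or the methods' t-test after adjustment, and also without 3 DPI replicate 3 or 14 DPI replicate 1. With normexp background correction both were instead called lower at 42 DPI, at -0.49 and -0.64, where the median of all tested miRNAs stood at -1.67.

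**Figure D2:**
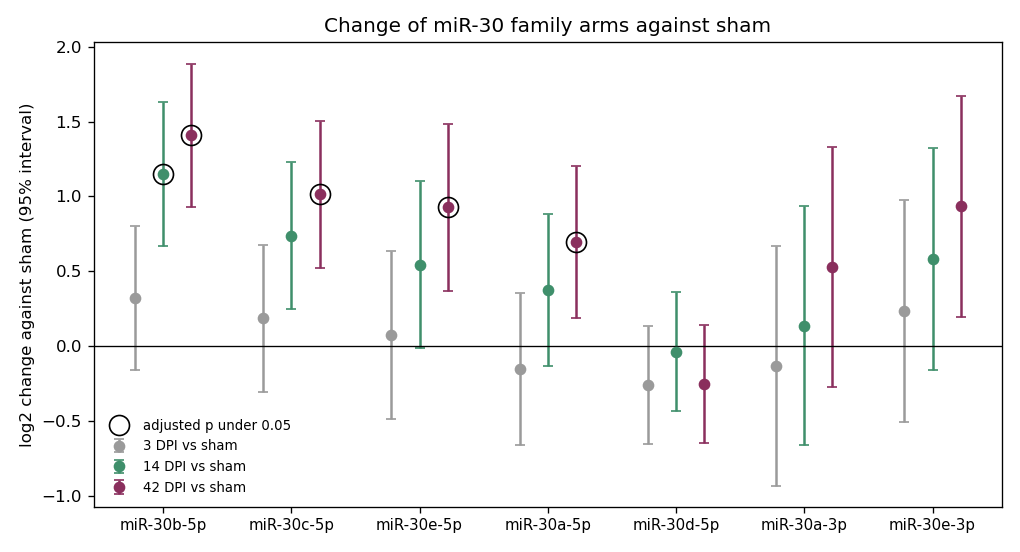
Log2 change against sham (vertical axis) of the 7 arms at 3, 14 and 42 DPI, with 95% intervals from limma over 12 arrays. Rings mark the changes with an adjusted p under 0.05, which are miR-30b-5p at 14 DPI and miR-30b-5p, miR-30c-5p, miR-30e-5p and miR-30a-5p at 42 DPI.

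Counted by comparison, 0 of 7 arms were called at 3 DPI, against 0% of all tested miRNAs. No member had an unadjusted p under 0.05 there (limma), compared with 11 of 486 miRNAs, and the methods' t-test after adjustment also called 0. At 14 DPI, 1 of 7 was called, where 3.70% of all miRNAs were called and 1.65% were called higher. At 42 DPI, 4 of 7 were called, all higher, where 34.2% were called and 13.6% called higher. All arrays of the injured group lay above all sham arrays for 2 arms at 14 DPI (5.14% of all miRNAs) and 6 arms at 42 DPI (31.3%). The median log2 change of the 7 at 42 DPI was 0.93, and that of all 486 was -0.09.

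Between 14 and 42 DPI, a comparison that lies wholly on slide 2, 0 of 7 arms were called (0% of all miRNAs), with 0 at an unadjusted p under 0.05 (limma) against 54 of 486. The log2 difference of 42 DPI minus 14 DPI ran from -0.22 for miR-30d-5p to 0.39 for miR-30a-3p. The 42 DPI arrays of miR-30a-5p and miR-30e-5p all lay above their 14 DPI arrays. Over all 486 miRNAs this held for 9, and for 125 the 42 DPI arrays all lay below.

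The 2 arrays of 3 DPI on slide 2 gave a second reference that does not use the sham arrays. Against them, in a fit of the 8 arrays of slide 2, the 42 DPI arrays were higher by 1.01 ± 0.25 for miR-30b-5p, 1.00 ± 0.24 for miR-30a-5p, 0.89 ± 0.30 for miR-30e-5p and 0.88 ± 0.25 for miR-30c-5p (log2, SE). The value for miR-30d-5p was 0.16 ± 0.15. With all 12 arrays in the fit, 4 of 7 arms were called in 42 DPI against 3 DPI, where 38.3% of all miRNAs were. On slide 2 none passed the adjustment (adjusted p = 0.059 to 0.42 for the 5p arms, limma), and in this fit 0% of all miRNAs were called at 42 DPI and 0% at 14 DPI. For 14 DPI the log2 differences from the same arrays were 0.75 for miR-30b-5p, 0.68 for miR-30a-5p, 0.61 for miR-30c-5p, 0.51 for miR-30e-5p and 0.37 for miR-30d-5p. On slide 1, replicate 1 of 3 DPI differed from sham by 0.05 to 0.54 over the 7 arms, and every adjusted p was 1 (limma, with the lone array assumed to vary like the sham arrays).

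The paralogs were then set against each other within each array, which takes out the scaling factor of the array. miR-30b-5p minus miR-30d-5p was -0.91, -1.002 and -0.73 in sham, -0.77, 0.09 and -0.23 at 3 DPI, -0.10, 0.51 and 0.51 at 14 DPI, and 1.02, 0.47 and 0.84 at 42 DPI. The 14 and 42 DPI arrays lay above all sham arrays. This within-array log2 difference changed against sham by 1.19 ± 0.24 at 14 DPI (adjusted p = 0.00519, limma) and by 1.66 ± 0.24 at 42 DPI (adjusted p = 0.000539, limma).

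Of the 10 pairs of 5p paralogs, 0 were called at 3 DPI, 7 at 14 DPI, 8 at 42 DPI and 0 between 14 and 42 DPI. Over all 101 pairs of miRNAs that share a number and an arm, 0.990%, 49.5%, 66.3% and 0.990% were called in the same comparisons, so calls between paralogs were common on these arrays and the counts for miR-30 were near that background at 42 DPI. At 3 DPI and between 14 and 42 DPI, 6 and 3 of the 10 pairs had an unadjusted p under 0.05 (limma). The share of all 101 pairs under that unadjusted threshold was not counted, so these counts have no background. Pairs share members and are not independent. Without replicate 1 of 3 DPI, 6 pairs were called at 3 DPI, miR-30b-5p minus miR-30d-5p among them with a change of 0.81, and over all pairs 31 of 101 were called in that fit against 1 of 101 with every array.

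At 42 DPI, miR-30d-5p was the lower one in all 4 pairs that contain it, its change falling short of those of miR-30b-5p, miR-30c-5p, miR-30e-5p and miR-30a-5p by 1.66, 1.27, 1.18 and 0.95 (adjusted p = 0.000539 to 0.00233, limma). Among the other 4, miR-30b-5p exceeded miR-30c-5p by 0.39, miR-30e-5p by 0.48 and miR-30a-5p by 0.71, all called, and miR-30c-5p exceeded miR-30a-5p by 0.32 (adjusted p = 0.0193, limma). The changes of miR-30c-5p and miR-30e-5p differed by 0.09 (interval -0.06 to 0.23), and those of miR-30e-5p and miR-30a-5p by 0.23 (interval 0.00 to 0.46). Neither of these pairs was called. With normexp background correction, the pairs of miR-30b-5p with miR-30a-5p and with miR-30e-5p were not called at 42 DPI. The pair of miR-30c-5p and miR-30e-5p was called there, in a fit that called 71 of 101 pairs.

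Within slide 2 the place of miR-30d-5p was similar and the order among the others was not. From 3 to 42 DPI, miR-30b-5p and miR-30a-5p each exceeded miR-30d-5p by 0.85 (adjusted p = 0.0464 and 0.0460, limma), where 29.7% of all 101 pairs were called, and miR-30c-5p and miR-30e-5p exceeded it by 0.72 and 0.73 (adjusted p = 0.0636 and 0.108, limma). miR-30b-5p and miR-30a-5p did not separate there, with a difference of 0.00 (interval -0.18 to 0.17). From 3 to 14 DPI on slide 2, none of the 10 pairs was called, where 1.98% of all pairs were, and miR-30b-5p minus miR-30e-5p and miR-30b-5p minus miR-30c-5p had an unadjusted p under 0.05 (limma). For that unadjusted threshold the share of all pairs was not counted. With slide as a block over all 12 arrays, 0 of 10 pairs and 0 of 7 arms were called at 14 or 42 DPI. That fit called 0 of 486 miRNAs at either time, and 0 of 101 pairs at 14 DPI and 2 of 101 at 42 DPI. The median change over the 7 arms was 0.83 at 14 DPI and 1.17 at 42 DPI in that fit, against 0.54 and 0.93 without the block. Only the 3 DPI arrays lay on both slides, so the slide term rests on them alone, and the part of slide was not tested.

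**Figure D3:**
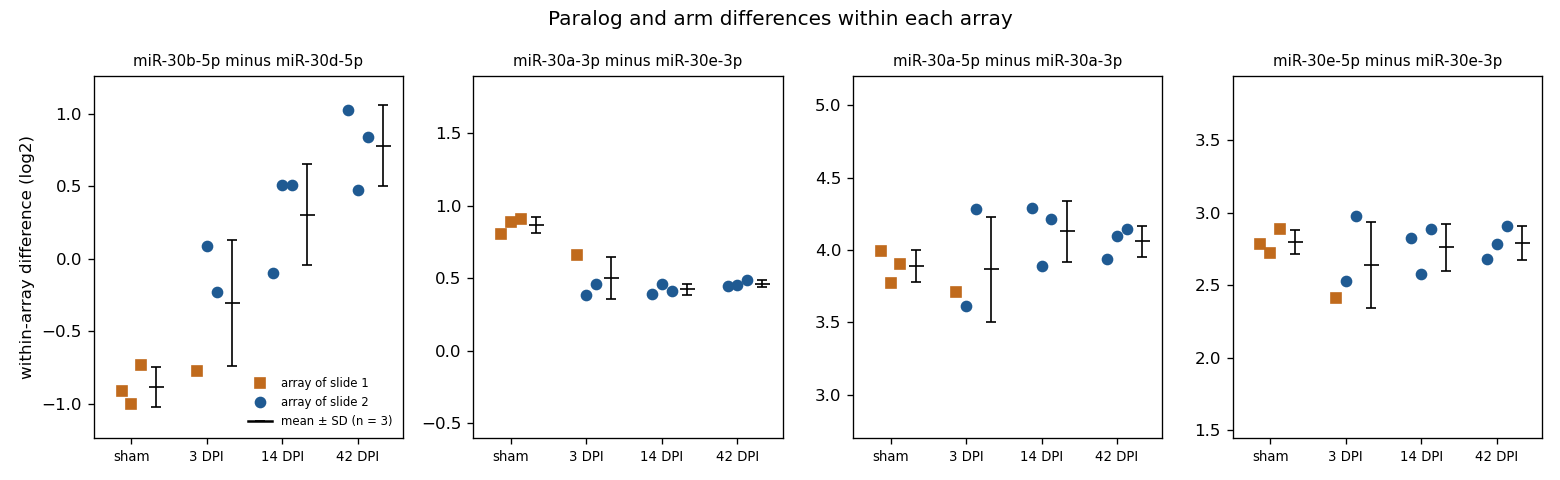
Within-array log2 differences (vertical axis, the same span in each panel) between paralogs (left panels) and between arms of 1 hairpin (right panels) by group, 1 point per array, squares for slide 1 and circles for slide 2, with mean ± SD (n = 3). miR-30b-5p minus miR-30d-5p runs from below -0.73 in sham to above 0.47 at 42 DPI, while the 5p minus 3p differences of miR-30a and miR-30e overlap between groups.

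The within-array difference of the 3p paralogs was lower after injury at each time. miR-30a-3p minus miR-30e-3p was 0.80, 0.89 and 0.91 in sham, 0.66, 0.38 and 0.46 at 3 DPI, 0.39, 0.46 and 0.41 at 14 DPI, and 0.45, 0.45 and 0.49 at 42 DPI. All injured arrays lay below all sham arrays, and the highest of them, replicate 1 of 3 DPI, is the one that shares slide 1 with sham. The change of this difference was -0.37 ± 0.07, -0.45 ± 0.07 and -0.40 ± 0.07 at 3, 14 and 42 DPI (adjusted p = 0.0301, 0.00128 and 0.000848, limma). Within slide 2 it was 0.00 and 0.04 from 3 DPI to 14 and 42 DPI. The call at 3 DPI was lost in 11 of the 12 fits that left out 1 array, the changes over all 12 fits being -0.45 to -0.31, and 1 of the miR-30e-3p probes was above background on 0 of 45 sham spots. With normexp the difference changed by 0.15 at 42 DPI, in the opposite direction.

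The arms of 1 hairpin showed no separation. miR-30a-5p minus miR-30a-3p was 3.99, 3.77 and 3.90 in sham and 3.94, 4.10 and 4.14 at 42 DPI, and miR-30e-5p minus miR-30e-3p was 2.78, 2.72 and 2.89 in sham and 2.68, 2.79 and 2.91 at 42 DPI. The groups overlapped for both. The change at 42 DPI was 0.17 (interval -0.23 to 0.57) for miR-30a and -0.01 (interval -0.35 to 0.33) for miR-30e, and at 14 DPI 0.24 and -0.04. Neither of the 2 hairpins was called in any comparison and none had an unadjusted p under 0.05 (limma), while among 59 hairpins with both arms tested 0%, 13.6% and 18.6% were called at 3, 14 and 42 DPI and 0% between 14 and 42 DPI. With normexp, however, both hairpins were called at 14 and 42 DPI, the change of miR-30e at 42 DPI then being 1.36. Normexp called 370 and 429 of 486 miRNAs at those times, and the share of all 59 hairpins called with it was not counted.

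The other arms of the same hairpins gave no usable direction. miR-30b-3p and miR-30c-1-3p were not well above background on any sham array, miR-30c-2-3p was on 1 of 3, and miR-30d-3p was detected on a single array, at 42 DPI, and was not tested. At 42 DPI, miR-30b-3p, miR-30c-1-3p and miR-30c-2-3p were detected on all 3 arrays and their mean intensity was 68.1, 29.5 and 69.5 units, against 11.2, 12.9 and 14.2 in sham. After scaling, the fit nevertheless gave log2 changes of -0.26, -0.62 and -0.58 (adjusted p = 0.285, 0.0160 and 0.0217, limma), with all 42 DPI arrays of miR-30c-1-3p at the floor of -5.06, and these sham levels are only bounds.

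The probes of each member pointed the same way at 42 DPI. The log2 changes were 1.60 and 1.37 for the probes of miR-30b-5p, 1.29 and 0.96 for miR-30c-5p, 0.98 and 0.91 for miR-30e-5p, 0.91, 0.81 and 0.62 for miR-30a-5p, and -0.30 and -0.22 for miR-30d-5p. For the 3p arms they were 0.63 and 0.48 (miR-30a-3p) and 0.89 and 1.09 (miR-30e-3p). In sham, 1 of the miR-30b-5p probes was above background on 12 of 44 spots and 1 of the miR-30a-3p probes on 22 of 45, whereas both miR-30d-5p probes were above it on every sham spot. No spot was saturated.

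**Figure D4:**
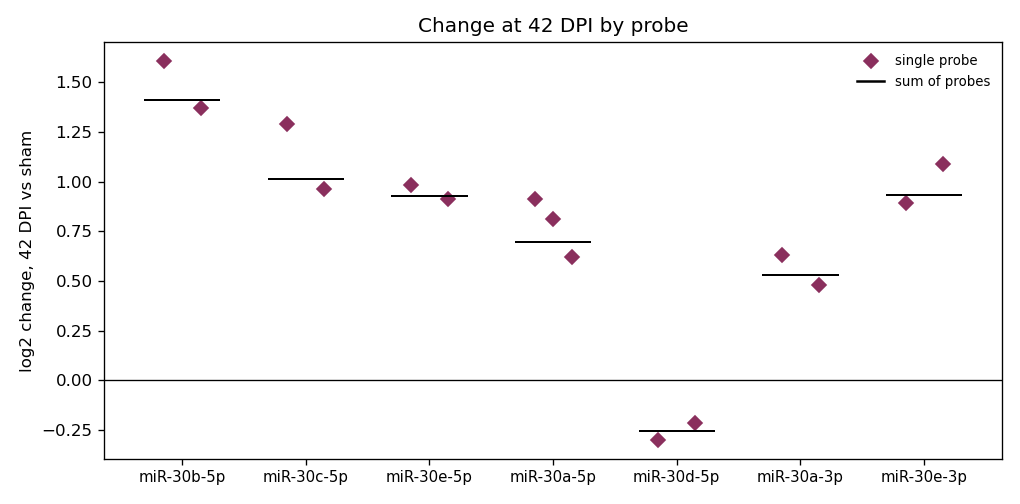
Log2 change at 42 DPI against sham (vertical axis) for each probe of the 7 arms (diamonds), with the change of the summed signal as a line. Both probes of miR-30d-5p lie below 0, at -0.30 and -0.22, and every probe of the other arms lies at or above 0.48.

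A miRNA that does not bear the miR-30 name carries the same seed as the 5p arms. Among 1679 mature mouse miRNAs in the RefSeq table, bases 2 to 8 of miR-30a-5p were shared with miR-30c-5p, miR-30e-5p and miR-384-5p, which lies at chrX:105344332-105344354 on the minus strand.
miR-384-5p: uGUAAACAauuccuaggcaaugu
It was detected on 2 of 3 sham arrays and on all others. Its mean log2 scaled signal was -3.53 ± 0.28 (SD, n = 3) in sham, -3.31 ± 0.48 at 3 DPI, -2.68 ± 0.41 at 14 DPI and -2.40 ± 0.07 at 42 DPI, with changes against sham of 0.85 at 14 DPI (adjusted p = 0.123, limma) and 1.13 at 42 DPI (adjusted p = 0.0160, limma). All its 14 and 42 DPI arrays lay above sham. It was looked up after the values of the family were seen.

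Over the 12 arrays, the miRNAs outside the family whose log2 scaled signal was most like the mean of the 5p arms were miR-27a-3p (Pearson r = 0.990), miR-411-3p (0.985) and miR-23b-3p (0.984). Those most like the mean of the 3p arms were miR-323-3p (0.980), miR-335-5p (0.979) and miR-532-5p (0.975). These arrays share the scaling, the slides and the brightness trend, and the values are descriptive. Their log2 changes at 42 DPI were 0.85, 1.15 and 0.81 for the first 3 and 0.54, 0.91 and 0.70 for the others. Since these miRNAs were picked for likeness on the same arrays, such changes follow from the choice and are no separate evidence.

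Marker lists of other cell types moved with the family in part only. The summed scaled signal (linear scale) of 6 neuron miRNAs ran from 15.7 to 20.9 in sham and from 28.7 to 32.8 at 42 DPI. miR-124-3p was detected on none of these arrays. The largest terms of that sum were miR-9-3p and miR-128-3p. At 42 DPI, miR-128-3p and miR-137-3p were called higher, by 1.05 and 0.59, where 34.2% of all miRNAs were called. miR-9-5p, miR-9-3p and miR-138-5p were not called, at 0.81, 0.46 and 0.34 (adjusted p = 0.0605, 0.214 and 0.313, limma). The sum of 3 oligodendrocyte miRNAs ran from 1.80 to 2.51 in sham and from 4.12 to 4.43 at 42 DPI. The 6 microglia and myeloid miRNAs ran from 0.722 to 0.989 and from 1.39 to 1.55. That sum was mostly miR-21a-5p, whose mean log2 scaled signal was -0.55 in sham and 0.32 at 42 DPI, whereas miR-223-3p was at -3.83 and -3.96 and miR-142a-5p was not detected in either group. The dim miR-142a-3p and miR-146a-5p, detected on no sham array, were called higher at 42 DPI by 0.46 and 0.51 (adjusted p = 0.0498 and 0.0255, limma). Only at 42 DPI were both detected on every array of a group, so they entered the tests through that group alone. Their mean log2 scaled signals in sham, -4.91 and -5.04, lay near the floor and are only bounds. For these reasons the 2 calls cannot show whether either miRNA rose. The mean of miR-155-5p was at the floor in both groups. The 3 vessel miRNAs ran from 1.07 to 1.48 and from 1.50 to 1.75. In contrast, 3 epithelial miRNAs ran from 0.530 to 1.33 in sham and from 0.194 to 0.229 at 42 DPI, and 3 erythrocyte miRNAs, none of them detected in sham, from 0.115 to 0.153 and from 0.0901 to 0.116. The part of these cell types, of array brightness and of slide in the changes of the miR-30 arms was not tested.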

How the data were processed

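Mouse microglial exosome RNA was labelled with Cy3 and measured on 12 one-color Agilent miRNA arrays. The authors deposited, per array, Feature Extraction 10.7.1.1 output, whose processed signal is a background-subtracted intensity, and a table of log2 values whose scale and centring are not stated in the sources used here and which served as an alternative. Control spots and outlier-flagged spots were left out, spots were averaged per probe and the probes of a miRNA summed. Scaling used the 75th percentile of the 230 miRNAs that every array detected, with a floor of -5.06 on the log2 scale. A miRNA counted as detected where over 0.5 of the spots of a probe were well above background. The 486 of 1881 miRNAs detected throughout any 1 group were tested with limma 3.58.1 in R 4.3.3, with all 4 groups in 1 fit, no covariate, and an adjusted p threshold of 0.05. Arm pairs (59) and paralog pairs (101) were tested as within-array log2 differences.

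The script was tested on simulated data. The labels reuse replicate numbers across groups. Deviations of same-numbered arrays correlated at 0.83, 0.44 and 0.75 for sham and 14 DPI, the sole source for a pairing, and not all above 0.1 for the other comparisons. The named miRNAs were the 7 arms, the other arms of their hairpins, and the 3 most like each arm class. The members, lists and tests were chosen with earlier results of these data known. Alternatives covered probe summary, background correction, scaling, floor, filter, samples, blocks, the methods' t-test and single arrays left out. Array number limits precision. Tables were handled with Python 3.11.15, pandas 2.3.3 and NumPy 2.4.6, and figures drawn with Matplotlib 3.10.9. All 3960 spots of the family's arms lay nearest their own array's grid position.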

Additional observations from a re-analysis of the deposited data

Results flagged for a closer look

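For 4 arms the change at 42 DPI differed from that at 3 DPI. Since both are measured against the same sham arrays, the difference equals 42 DPI minus 3 DPI: 1.09 for miR-30b-5p, 0.85 for miR-30a-5p, 0.85 for miR-30e-5p and 0.83 for miR-30c-5p on the log2 scale (adjusted p = 0.0172, 0.0281, 0.0336 and 0.0273, limma). Of all 486 miRNAs, 38.3% were called in this comparison. Within slide 2 alone the adjusted p-values were 0.059 or higher.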

How the results depend on the processing

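The direction at 42 DPI of the 4 called arms held under every alternative run, and the counts of called arms stayed at 0 for 3 DPI. At 14 DPI, the number of called arms was 4 with normexp (2 higher and 2 lower, with 370 of 486 miRNAs called), 7 without scaling (all higher, 319 of 486) and 2 in the deposited table (143 of 486). It was 0 with the percentile over all miRNAs (21 of 486) and no filter (1 of 1881). It was also 0, with 0 of 486 miRNAs called, in a fit limited to sham and 14 DPI, the methods' t-test, slide as a block or a replicate block fitted to those groups alone. The last was chosen after seeing the data, as were the fits within a slide. At 42 DPI the number was 7 with normexp (4 higher and 3 lower, miR-30d-5p among the latter, with 429 of 486 miRNAs called) and 7 without scaling (all higher, 408 of 486). In 8 other settings it was 5, each time with miR-30e-3p added, where 143 to 262 of 486 miRNAs were called, or 118 of the 230 detected on all arrays. With double the floor it was 3, where miR-30a-5p was lost (87 of 486), without a filter 1 (18 of 1881 miRNAs called) and with slide as a block 0 (0 of 486). Between 14 and 42 DPI it was 6 without scaling (166 of 486). The median of all miRNAs at 42 DPI was 1.90 without scaling, 0.34 with quantile normalization and 0.46 with the percentile over all miRNAs. Without any of these alternatives, 166 of 486 miRNAs were called there. At an unadjusted p under 0.05, the methods' t-test gave 1 arm at 14 DPI and 5 at 42 DPI. The share of all miRNAs under that unadjusted threshold was not counted, so these counts have no background. After adjustment the same test called 212 of 486 miRNAs at 42 DPI. With the replicate block the counts were 1 at 14 DPI (4 of 486 miRNAs called) and 3 at 42 DPI (141 of 486), where miR-30a-5p was lost. Slide as a block left 0 paralog pairs at 14 and at 42 DPI, and normexp gave 2 arm pairs at 14 and 2 at 42 DPI. The share of all 59 arm pairs called with normexp was not counted, so its counts have no background. Leaving out 1 array gave 0 to 4 arms at 14 DPI (4 without 14 DPI replicate 1) and 2 to 5 at 42 DPI (2 without sham replicate 1 or 2 or any 42 DPI array). Over all 486 miRNAs, those fits called 1 to 162 at 14 DPI and 46 to 249 at 42 DPI. The called miR-30 paralog pairs were 0 to 6 at 3 DPI (6 without 3 DPI replicate 1), 6 to 8 at 14 DPI and 7 to 9 at 42 DPI. Of all 101 pairs, 0 to 31, 41 to 58 and 55 to 76 were called at those times.

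Signs turned as follows, in log2. For miR-30d-5p at 14 DPI: 0.19 with the total gene signal, 0.035 with the brightest probe, 0.25 with the percentile over all miRNAs, 0.0063 with quantile normalization, 1.68 without scaling and 0.42 with slide as a block. For miR-30d-5p at 42 DPI: 0.0053, 0.52, 2.57 and 0.21 with the total gene signal, the percentile over all miRNAs, no scaling and the slide block, and against 14 DPI 0.27 and 0.88 with that percentile and without scaling. At 3 DPI, miR-30a-5p, miR-30d-5p and miR-30a-3p were at 0.64, 0.54 and 0.66 without scaling and at 0.15, 0.050 and 0.33 with slide as a block or slide 1 alone. miR-30a-3p at 3 DPI was at 0.017 with the total gene signal, and miR-30e-3p at -0.25 in the deposited table. With normexp, 3 DPI values were -0.015, -0.00062 and -0.32 for miR-30b-5p, miR-30e-5p and miR-30e-3p, the 3p arms of miR-30a and miR-30e were at -0.50 and -0.53 at 14 DPI and -0.49 and -0.64 at 42 DPI, and miR-30e-3p was at -0.11 from 14 to 42 DPI. Differences also turned with normexp: 5p minus 3p to 0.28 (miR-30a) and 0.32 (miR-30e) at 3 DPI, 0.90 (miR-30e) at 14 DPI, 1.36 (miR-30e) at 42 DPI and 0.36 (miR-30a) from 14 to 42 DPI, and miR-30a-3p minus miR-30e-3p to 0.037 at 14 DPI and 0.15 at 42 DPI. The 5p minus 3p difference of miR-30e was 0.020 at 42 DPI with the brightest probe and -0.27 from 14 to 42 DPI with quantile normalization, and that of miR-30a was -0.30 at 42 DPI with quantile normalization and -2.87e-05 and -0.071 at 14 and 42 DPI with slide as a block. With 1 array left out, ranges that crossed 0 were -0.098 to 0.23 (miR-30e-5p, 3 DPI), -0.36 to 0.21 and -0.074 to 0.45 (miR-30a-3p, 3 and 14 DPI), -0.16 to 0.062 (miR-30d-5p, 14 DPI), -0.23 to 0.10 and -0.19 to 0.0067 (5p minus 3p of miR-30a at 3 DPI and from 14 to 42 DPI), and -0.099 to 0.056, -0.066 to 0.049 and -0.063 to 0.091 (5p minus 3p of miR-30e at 14 DPI, 42 DPI and from 14 to 42 DPI). The cause was not tested, except that no filter tests more miRNAs. In sham, 1 probe each of miR-30b-5p, miR-30a-3p and miR-30e-3p was above background on 12 of 44, 22 of 45 and 0 of 45 spots, which limits those arms.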
